A study of Mus musculus with 98 samples.

Results

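The platelet-derived growth factor (PDGF) receptors and ligands were followed in TBLC (totipotent blastomere-like cells), mouse cells held in culture in a state resembling early cleavage embryos. Their members are 2 receptor genes, Pdgfra and Pdgfrb, and 3 ligand genes, Pdgfa, Pdgfb and Pdgfc. They were taken as the rows with these symbols in each of the 9 count tables, 5 of the 21812 symbols of a table, and all 5 were found in every table. Pdgfra encodes CD140a, the surface protein behind the sort of the study, so its difference between sorted cells is a check of the sort and not a result.

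PDGF ligands are secreted as disulphide-linked dimers that bind and pair receptor tyrosine kinases at the cell surface. PDGF-A and PDGF-C act through the alpha receptor, whereas PDGF-B binds both receptors, and the beta receptor is best known from fibroblasts, pericytes and smooth muscle. In the mouse blastocyst the alpha receptor marks the primitive endoderm (PrE) lineage, and PDGF-A signalling through it is known to support the survival of these cells.

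The study asked how m6A and RNA stability bear on the formation of PrE from TBLC. Its 98 samples form 49 groups of 2 replicates, of which 43 groups with 86 libraries have counts. PrE-T and EPI-T are the CD140+ and CD140- fractions of cells kept for 3 days in SLM medium, and TBLC in 2MYCP were sequenced beside them. diffTBLC are unsorted cells after 3 days in SLM, used untreated or after siRNA to Virma or Mettl3 (parts of the m6A RNA methyltransferase complex) or Igf2bp3 (an RNA-binding reader), with the controls siNC, siNC1 and siNC2. TBLC_PlaB- spent 8 h in SLM and TBLC_Ctrl are their controls in 2MYCP; beyond the name, the labels give only the change of medium. Actinomycin D, which blocks transcription, was applied for 0, 1, 2 or 3 h in 4 paired courses, and RNA bound to Igf2bp3 or Ythdf2 was immunoprecipitated (IP) from diffTBLC and set against input. The line and strain of the cells are not given in the sources used here, nor whether replicates were separate cultures, so the spread that p-values are set against is that of these libraries and could be technical.

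Library totals ran from 2483808 to 29471283 counts. Levels are CPM (library-scaled counts), scaled within a table, and every group has n = 2. Differences are fitted log2 differences ± standard error with Benjamini-Hochberg adjusted p-values from edgeR's quasi-likelihood test over all genes that passed a filter on low counts. A gene is called where its adjusted p is under 0.05. Over the 86 libraries Pdgfra had between 36 and 10028 counts, Pdgfrb between 39 and 774, Pdgfa between 127 and 2089 and Pdgfc between 23 and 895. Pdgfb had between 0 and 82 counts, and TBLC_Ctrl replicate 1 at 3 h held 0, which allows up to 0.283 CPM by counting error alone. Precision is therefore lowest for Pdgfb, which failed the filter in the steady-state siRNA table with 1 to 6 counts a library.

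Some libraries went against their labels. The input of the Ythdf2 immunoprecipitation is labelled diffTBLC, yet its 12 PrE markers summed to between 1622 and 1647 CPM, against between 9772 and 9942 CPM in the Igf2bp3 input and between 6352 and 6360 CPM in diffTBLC at 0 h. The same sums were between 1307 and 1312 CPM in the Ythdf2 IP and between 20200 and 20230 CPM in the Igf2bp3 IP. Gata4, a PrE transcription factor, had 21.1 and 21.3 CPM in the Ythdf2 input and 274 and 273 CPM in the Igf2bp3 input. In the libraries labelled siIgf2bp3, the targeted gene was higher than in siNC2 at 0 h (28.7 and 25.3 against 19.9 and 16.7 CPM) and lower over 1 to 3 h (log2 difference -0.58 ± 0.04, adjusted p = 1.5e-13). Its mean was near level from 0 h to 1 h in the libraries labelled siIgf2bp3 (27.0 and 26.9 CPM). In siNC2 it went from 18.3 to 40.9 CPM, and in siNC1 from 19.1 to 35.1 CPM, against 20.2 and 20.1 CPM in siVirma. Contrasts at 0 h with siNC1 or siNC2 thus rest on control libraries that stand apart from their own 1 h libraries. Virma was lower after siVirma at steady state (87.1 and 81.0 against 122 and 115 CPM). Mettl3 was not called after siMettl3 (26.4 and 27.5 against 31.2 and 29.7 CPM, adjusted p = 0.771).

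Sequences just upstream of Pdgfra and Pdgfc are shown because these members moved in opposite directions in diffTBLC against TBLC and after siVirma at 0 h of actinomycin D. Both are the 250 bases before the RefSeq gene start, GRCm38.p6, plus strand, with each CpG in capitals; the count tables name build mm39, and no count was read from these windows. The first is chr5:75152001-75152250 and the second is chr3:81036166-81036415.
Pdgfra: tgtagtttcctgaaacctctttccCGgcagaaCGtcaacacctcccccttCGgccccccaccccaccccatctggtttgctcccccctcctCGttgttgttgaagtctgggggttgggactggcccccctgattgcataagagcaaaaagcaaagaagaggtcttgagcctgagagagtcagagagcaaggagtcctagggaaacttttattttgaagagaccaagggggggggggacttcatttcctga
Pdgfc: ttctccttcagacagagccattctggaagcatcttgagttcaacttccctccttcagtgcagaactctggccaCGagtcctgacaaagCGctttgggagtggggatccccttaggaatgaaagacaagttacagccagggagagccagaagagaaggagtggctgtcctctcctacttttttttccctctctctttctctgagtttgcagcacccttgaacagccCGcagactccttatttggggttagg

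The Pdgfra window held 4 CpG at 54.4% GC and the Pdgfc window held 3 CpG at 50.8% GC. Pdgfa, with 2 listed starts on chromosome 5, had 19 and 28 CpG in its windows. Over all 32851 windows of the same length the median was 6 CpG, 44.4% had at most 4 and 19.7% had at least 19. The letters GATAA, searched on both strands, were absent from the windows of all 3 genes and present in 22.6% of all windows. ACAAT was absent from those of Pdgfra and Pdgfc, present in 1 Pdgfa window and in 27.7% of all windows.

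The first comparison asked how the receptors and ligands differ between the sorted fractions. As the check of the sort, Pdgfra had 374 and 371 CPM in PrE-T, against 3.90 and 5.38 CPM in EPI-T and 103 and 98.7 CPM in TBLC. The fractions did not overlap in the gene behind the sort, and PrE-T held 81.1-fold more than EPI-T. Of the 4 other members, 2 were called between PrE-T and EPI-T, where 68.6% of the 14373 genes tested were called. In bulk RNA, fewer cells of a type and less RNA per cell cannot be told apart.

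Pdgfrb, the beta receptor, had 7.38 and 7.89 CPM in PrE-T, against 4.72 and 4.32 CPM in EPI-T. Both PrE-T libraries were above both EPI-T libraries, with a log2 difference of 0.75 ± 0.18 (adjusted p = 0.00112). Both fractions were far below TBLC, at 28.4 and 33.8 CPM. PrE-T fell by 2.02 ± 0.16 and EPI-T by 2.78 ± 0.17 on the log2 scale relative to TBLC (adjusted p = 4.5e-09 and 1.9e-10).

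Pdgfc, a ligand of the alpha receptor, had 1.75 and 2.69 CPM in PrE-T, against 9.39 and 7.97 CPM in EPI-T. The fractions did not overlap, with a log2 difference of -1.98 ± 0.23 between the fractions (adjusted p = 7.6e-07). In TBLC it had 19.5 and 24.0 CPM, above both fractions. The differences from TBLC were -3.30 ± 0.22 in PrE-T and -1.32 ± 0.19 in EPI-T (adjusted p = 8.3e-10 and 1.3e-05).

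Pdgfa, the other ligand of the alpha receptor, had 31.0 and 31.9 CPM in PrE-T, against 27.1 and 29.3 CPM in EPI-T. These differed by 0.16 ± 0.13 and were not called (adjusted p = 0.278), with a 95% interval from -0.09 to 0.41. TBLC had 48.9 and 36.7 CPM, higher than both fractions but far apart from each other. PrE-T differed from TBLC by -0.44 ± 0.13 (adjusted p = 0.0051) and EPI-T by -0.60 ± 0.13 (adjusted p = 0.000509), but without TBLC replicate 1 the PrE-T difference was -0.22 and lost its call (adjusted p = 0.18).

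Pdgfb, a ligand of both receptors, was near the limit of detection in the sorted cells. It had 5 and 8 counts (0.187 and 0.331 CPM) in PrE-T, against 18 and 14 counts (0.738 and 0.672 CPM) in EPI-T and 6 and 11 counts in TBLC. The difference between the fractions was -1.44 ± 0.87 (adjusted p = 0.15), with an interval from -3.14 to 0.26, so none was detectable at this depth. Against TBLC it differed by -0.46 ± 0.91 in PrE-T and 0.98 ± 0.84 in EPI-T (adjusted p = 0.672 and 0.321). Of the 4 members other than Pdgfra, 3 were called between PrE-T and TBLC, where 67.3% of tested genes were called, and 3 between EPI-T and TBLC, where 64.9% were.

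**Figure D1:**
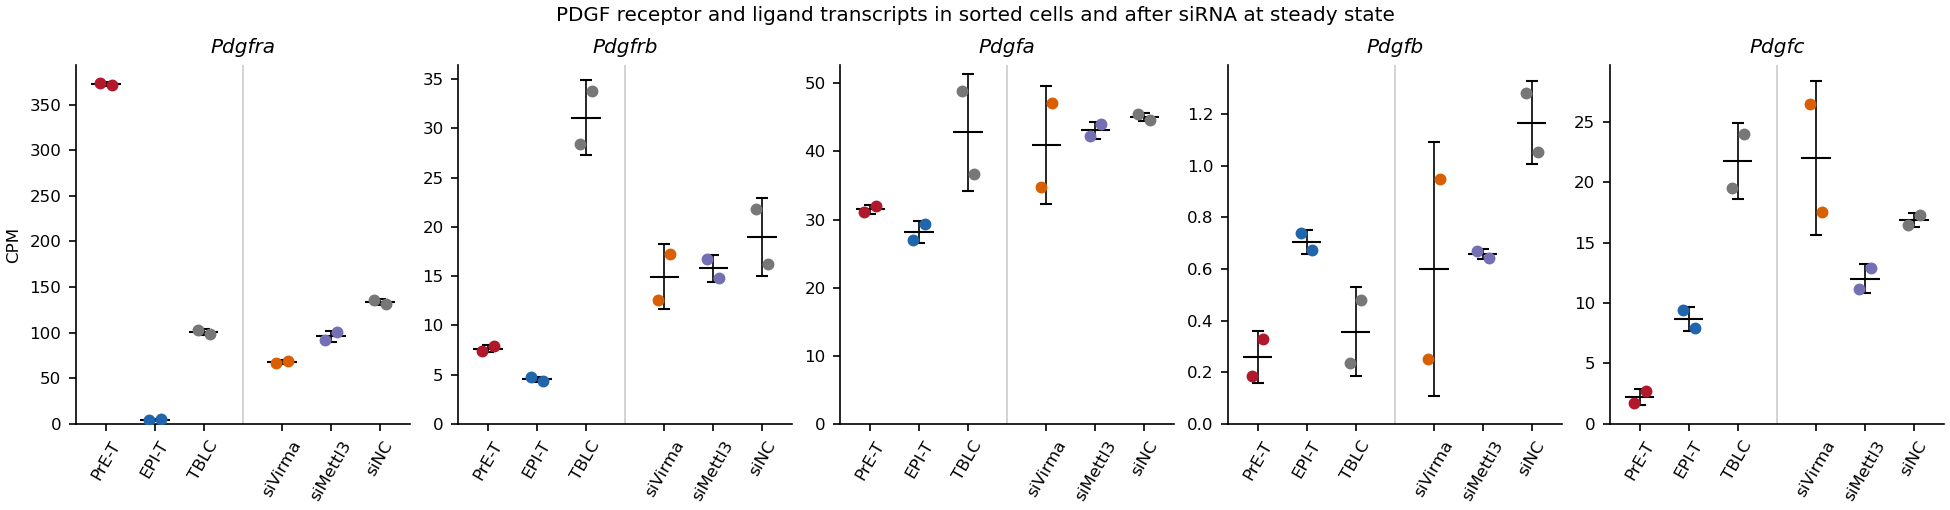
CPM of the 5 genes (vertical axes, each from 0) in sorted cells and TBLC (left of the grey line) and in diffTBLC after siRNA (right of it). Points are libraries, bars are means with SD, n = 2; the tables were scaled separately. Pdgfra stands at 374 and 371 CPM in PrE-T and under 6 CPM in EPI-T, while Pdgfc is lowest in PrE-T.

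Markers of fibroblasts and feeders, and of pericytes and smooth muscle, moved with Pdgfrb. The 18 fibroblast and feeder markers summed to between 325 and 330 CPM in PrE-T, against between 91.5 and 94.5 CPM in EPI-T and between 1512 and 1566 CPM in TBLC, with at least 16 of 18 detected in every library. Against EPI-T, PrE-T had 17 of 18 higher and 0 lower, and 17 of 18 were lower in PrE-T than in TBLC. Col1a1, a collagen gene of fibroblasts, had 57.4 and 58.0 CPM in PrE-T, 10.95 and 12.52 CPM in EPI-T and 346 and 329 CPM in TBLC. The 10 pericyte and smooth muscle markers summed to between 103 and 106 CPM in PrE-T, between 61.3 and 65.4 CPM in EPI-T and between 330.3 and 343 CPM in TBLC, with at least 7 detected. Of the 7 tested, 4 were higher and 1 lower in PrE-T against EPI-T, and 1 was higher and 5 lower against TBLC. Trophectoderm markers moved with Pdgfrb between the fractions and in EPI-T against TBLC, but not in PrE-T against TBLC. They summed to between 537.6 and 584.5 CPM in PrE-T, between 44.5 and 54.9 CPM in EPI-T and between 151 and 158 CPM in TBLC. Of 6 endothelial and blood markers tested, 2 were higher and 3 lower in PrE-T against EPI-T, and 1 higher and 4 lower against TBLC. The part of any such cells in the Pdgfrb and Pdgfc differences was not tested.

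Other genes of the pathway are given by role. Of 6 tested genes for ligand processing and plasminogen activation, PrE-T had 5 higher and 1 lower against EPI-T, with a median log2 difference of 2.75 beside 0.03 over all genes. Furin, a protease that cuts PDGF-A and PDGF-B precursors, differed by 3.04 ± 0.11 (adjusted p = 8.9e-14). Plat, the tissue plasminogen activator known to release active PDGF-C, differed by 6.03 ± 0.47 (adjusted p = 4.6e-09), whereas Pcsk6 differed by -0.98 ± 0.09 (adjusted p = 2.6e-08). Of 33 adaptors and effectors of the receptors, 12 were higher and 10 lower, with a median of -0.10; the serine kinase gene Akt1 differed by 2.00 ± 0.10 and Braf by -1.59 ± 0.08. Of 13 negative regulators 3 were higher and 6 lower, with Cbl, a ubiquitin ligase that ends receptor signalling, at -0.94 ± 0.07. Of the co-receptors and modulators 4 of 6 were higher and 2 lower, among them Sparc, which binds PDGF and is also a PrE marker, at 4.78 ± 0.06. Of 5 related receptor kinases tested 3 were higher and 1 lower, and neither of the other family genes, Pdgfd and Pdgfrl, was called.

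The next comparison used unsorted cells. At 0 h of actinomycin D, diffTBLC were compared with TBLC, where 4 of the 5 members were called and 82.5% of all 14463 genes tested were. Pdgfra had 75.4 and 75.5 CPM in diffTBLC, against 15.98 and 15.4 CPM in TBLC. The groups were far apart, with a log2 difference of 2.27 ± 0.06 (adjusted p = 4.3e-53). The 12 PrE markers were all higher, summing to between 6352 and 6360 CPM in diffTBLC and between 791 and 804 CPM in TBLC.

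The beta receptor and 2 of the ligands were lower in diffTBLC. Pdgfrb had 5.90 and 7.31 CPM, against 16.6 and 15.8 CPM in TBLC, a difference of -1.30 ± 0.10 (adjusted p = 2.4e-20). Pdgfc had 10.1 and 8.64 CPM, against 36.2 and 35.9 CPM in TBLC, a difference of -1.94 ± 0.08 (adjusted p = 2.1e-38). Pdgfa had 39.6 and 38.5 CPM, against 50.0 and 50.4 CPM in TBLC, a difference of -0.36 ± 0.05 (adjusted p = 6.1e-10). In none of the 3 genes did the groups overlap.

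Pdgfb had 1.65 and 2.15 CPM in diffTBLC, against 1.54 and 1.89 CPM in TBLC, with overlapping groups and a difference of 0.15 ± 0.24 (adjusted p = 0.571). The fibroblast and feeder markers again moved with Pdgfrb. Here they moved with Pdgfc too, though in PrE-T against EPI-T they had gone against it, with 17 of 18 higher. They summed to 266 CPM in both diffTBLC libraries and to between 673 and 684 CPM in TBLC. Of the 18, 16 were lower and 1 higher in diffTBLC. The pericyte and smooth muscle markers went the other way, summing to 154 CPM in both diffTBLC libraries and to between 61.6 and 63.8 CPM in TBLC, with 4 of 8 tested higher and 2 lower. The part of both lists in these differences was not tested. Of the 33 adaptors and effectors, 8 were higher and 20 lower, with a median of -0.24 beside 0.02 over all genes. Of 5 related receptor kinases tested, 2 were higher and 2 lower. Among them Kit, a receptor kinase of the same class as the PDGF receptors, differed by -2.86 ± 0.05 (adjusted p = 4.3e-63).

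Averaged over 1 to 3 h of actinomycin D, all 5 members were called between diffTBLC and TBLC, where 89.5% of genes were. Pdgfra differed by 2.24 ± 0.04, Pdgfrb by -1.25 ± 0.06 and Pdgfc by -1.98 ± 0.05, close to their values at 0 h. Pdgfa differed by -0.66 ± 0.03 (adjusted p = 1.6e-33). Pdgfb differed by 0.47 ± 0.22 (adjusted p = 0.0401), a call that was lost in DESeq2 (adjusted p = 0.0793), with library totals (0.28, adjusted p = 0.217) and without any 1 of 8 libraries. These were diffTBLC replicate 1 at 1, 2 and 3 h, TBLC replicate 2 at 1 h and both TBLC replicates at 2 and 3 h, with differences between 0.33 and 0.51 and adjusted p-values between 0.0537 and 0.22.

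After 8 h in SLM the members were near their levels in 2MYCP. At 0 h, 1 of 5 was called between TBLC_PlaB- and TBLC_Ctrl, where 1.25% of 14107 genes were. Pdgfa had 101 and 104 CPM in TBLC_PlaB-, against 90.1 and 89.8 CPM in TBLC_Ctrl. The groups did not overlap, and the difference was 0.19 ± 0.04 (adjusted p = 0.00108), but the call was lost without TBLC_PlaB- replicate 2 (0.17, adjusted p = 0.0838) and in DESeq2 (adjusted p = 0.083).

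Pdgfra had 15.8 and 15.7 CPM in TBLC_PlaB-, against 16.4 and 15.2 CPM in TBLC_Ctrl, which overlap; the interval of the difference ran from -0.17 to 0.17. Pdgfrb had 28.3 and 27.6 CPM against 30.5 and 27.3 CPM in TBLC_Ctrl, and Pdgfc 36.1 and 31.7 CPM against 34.1 and 35.8 CPM. Both overlapped and neither was called (adjusted p = 0.92 and 0.886). Pdgfb had 0.971 and 0.922 CPM against 0.870 and 0.718 CPM in TBLC_Ctrl, without overlap and without a call (0.26 ± 0.38, adjusted p = 0.903). Averaged over 1 to 3 h, Pdgfa differed by 0.24 ± 0.02 (adjusted p = 5.0e-15) and Pdgfc by 0.21 ± 0.04 (adjusted p = 7.4e-05), 2 of 5 members where 20.7% of genes were called. Pdgfra differed by 0.14 ± 0.05 and missed the threshold (adjusted p = 0.0514), which it passed without TBLC_Ctrl replicate 1 at 1 h, TBLC_Ctrl replicate 2 at 3 h or TBLC_PlaB- replicate 2 at 2 h (0.17 to 0.18). Pdgfrb differed by 0.07 ± 0.04 and Pdgfb by 0.20 ± 0.40, neither called (adjusted p = 0.209 and 0.78). Fibroblast and feeder markers summed to between 1623 and 1633 CPM in TBLC_PlaB- and between 1614 and 1637 CPM in TBLC_Ctrl at 0 h. Over 1 to 3 h 9 of the 18 were higher and 1 lower, and their part in the Pdgfa and Pdgfc differences was not tested.

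Next the steady-state siRNA table asked how the members differ after siRNA to the m6A writers. After siVirma, Pdgfra alone was called among the 4 members tested, where 7.11% of 12141 genes were. It had 66.4 and 69.1 CPM after siVirma, against 136 and 131 CPM in siNC. The groups did not overlap, and the level fell by 0.98 ± 0.09 on the log2 scale (adjusted p = 1.5e-21).

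After siMettl3 Pdgfra had 91.9 and 100.2 CPM, between siVirma and siNC and overlapping neither. It differed from siNC by -0.47 ± 0.08 (adjusted p = 9.6e-06), again as 1 of 4 members, where 0.865% of genes were called. Between siVirma and siMettl3 the difference itself was -0.50 ± 0.09 (adjusted p = 3.8e-05). The PrE markers moved with it: 11 of 12 were lower after siVirma and 9 of 12 after siMettl3, and they summed to between 6461 and 6480 CPM after siVirma, between 8578 and 8681 CPM after siMettl3 and between 9888 and 10020 CPM in siNC.

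The other receptor and the ligands were not called against siNC. Pdgfrb had 12.6 and 17.3 CPM after siVirma and 16.8 and 14.8 CPM after siMettl3, against 21.8 and 16.2 CPM in siNC (adjusted p = 0.369 and 0.717). Pdgfa had 34.8 and 47.1 CPM after siVirma and 42.2 and 44.0 CPM after siMettl3, against 45.5 and 44.6 CPM in siNC (adjusted p = 0.645 and 0.932). The siVirma libraries lay on both sides of the siNC libraries for this ligand.

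Pdgfc had 26.5 and 17.5 CPM after siVirma and 11.2 and 12.9 CPM after siMettl3, against 16.4 and 17.3 CPM in siNC. The siVirma libraries were both above and the siMettl3 libraries both below siNC, without a call against it (0.38 ± 0.19, adjusted p = 0.265, and -0.48 ± 0.21, adjusted p = 0.383). Between siVirma and siMettl3 it differed by 0.86 ± 0.21 (adjusted p = 0.00345), so that 2 of 4 members were called there, where 2.43% of genes were. That call was lost without siVirma replicate 1 (0.54, adjusted p = 0.395), without siMettl3 replicate 1 (0.77, adjusted p = 0.105) and in DESeq2 (adjusted p = 0.28). Pdgfrb and Pdgfa each differed by -0.07 between siVirma and siMettl3 (adjusted p = 0.939 and 0.892).

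Of the pathway genes, few were called after siVirma at steady state. Of the co-receptors and modulators 3 of 6 were lower, namely Sparc (-0.40 ± 0.03), the endocytic receptor gene Lrp1 (-0.30 ± 0.05) and Nrp1 (-0.59 ± 0.18). Of 33 adaptors and effectors 2 were lower, namely Map2k2 (-0.35 ± 0.09) and Pik3r1 (-0.47 ± 0.14). None of 6 genes for ligand processing and none of 13 negative regulators was called.

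The siVirma contrast was read again at 0 h of a separate actinomycin D course, against siNC1. Virma had 34.7 and 33.6 CPM after siVirma, against 40.7 and 41.7 CPM in siNC1 (-0.27 ± 0.06, adjusted p = 0.000315). There 2 of 5 members were called, where 60.3% of 13664 genes were. Pdgfra had 21.3 and 23.0 CPM after siVirma, against 48.3 and 50.4 CPM in siNC1, a difference of -1.16 ± 0.07 (adjusted p = 8.6e-16). Pdgfc had 18.98 and 19.67 CPM after siVirma, against 8.98 and 7.86 CPM in siNC1, a difference of 1.19 ± 0.10 (adjusted p = 3.2e-12). The receptor gene was lower and this ligand gene higher after siVirma, and neither overlapped its control. At 1 h siNC1 had means of 78.7 CPM for Pdgfra and 10.3 CPM for Pdgfc. The size of both differences thus depends on the 0 h libraries of siNC1, which stand apart as given above.

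In the same libraries all 12 PrE markers were lower after siVirma. The fibroblast and feeder markers summed to between 205 and 206 CPM after siVirma and between 165 and 168 CPM in siNC1, with 8 of 17 tested higher and 2 lower, and their part in the Pdgfc difference was not tested. Pdgfrb had 5.71 and 5.32 CPM after siVirma, against 5.10 and 5.06 CPM in siNC1, Pdgfa 40.4 and 38.7 against 39.2 and 42.6 CPM, and Pdgfb 1.79 and 1.32 against 1.22 and 1.30 CPM. None of these was called (adjusted p = 0.498, 0.617 and 0.365).

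Averaged over 1 to 3 h, all 5 members were called between siVirma and siNC1, where 71.5% of genes were. Pdgfra differed by -1.96 ± 0.04, Pdgfc by 0.76 ± 0.06, Pdgfb by 0.78 ± 0.22, Pdgfrb by 0.41 ± 0.09 and Pdgfa by 0.27 ± 0.05. The largest adjusted p among these was 0.00227, for Pdgfb. The receptor of the PrE lineage was thus the one member below its control.

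In the libraries labelled siIgf2bp3, directions rest on a course whose target gene went against the label at 0 h, as given above. At 0 h 2 of 5 members were called against siNC2, where 65.7% of 13580 genes were and the median gene stood at 0.14. Pdgfa had 31.0 and 29.4 CPM in the libraries labelled siIgf2bp3, against 38.7 and 40.6 CPM in siNC2, a difference of -0.39 ± 0.06 (adjusted p = 9.0e-07). Pdgfra had 54.3 and 50.0 CPM against 47.9 and 45.9 CPM in siNC2, a difference of 0.16 ± 0.06 (adjusted p = 0.0229) that is about the shift of the median gene. This second call was lost under RLE scaling (0.08, adjusted p = 0.228), without the filter (0.04), in DESeq2 (0.08), with only the groups compared (0.03), and without siNC2 replicate 1 or 2 or replicate 1 labelled siIgf2bp3 (0.09 to 0.14). Pdgfrb had 5.43 and 3.77 CPM in the libraries labelled siIgf2bp3, against 5.45 and 5.18 CPM in siNC2, Pdgfb 1.85 and 1.89 against 1.31 and 1.33 CPM, and Pdgfc 10.3 and 10.2 against 8.69 and 8.44 CPM. Pdgfrb overlapped and the others did not, and none was called (adjusted p = 0.282, 0.0837 and 0.11); without replicate 1 labelled siIgf2bp3 Pdgfrb was (-0.50, adjusted p = 0.0219), and without replicate 2 its sign turned, with no call.

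Over 1 to 3 h Pdgfa and Pdgfra had signs opposite to those at 0 h. Pdgfa was 0.30 ± 0.04 higher (adjusted p = 6.6e-08) in the libraries labelled siIgf2bp3, and Pdgfra differed by -0.84 ± 0.04 (adjusted p = 7.9e-19). Pdgfrb differed by -0.46 ± 0.10 (adjusted p = 9.1e-05) and Pdgfc by -0.29 ± 0.09 (adjusted p = 0.00376), so that 4 of 5 members were called, where 70.0% of genes were. Pdgfb differed by 0.36 ± 0.22 (adjusted p = 0.165). Over the same hours 9 of 12 PrE markers were lower and 0 higher (median -0.39), and 11 of 17 fibroblast and feeder markers were lower and 2 higher (median -0.32). Their part in these differences was not tested.

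The courses give these levels hour by hour. Between 0 h and 1 h, Pdgfra rose in both control arms: in siNC1 it had 81.4 and 76.1 CPM at 1 h, against 48.3 and 50.4 CPM at 0 h, and in siNC2 it had 90.3 and 91.8 CPM at 1 h, against 47.9 and 45.9 CPM at 0 h. These rises were 0.68 ± 0.06 and 0.96 ± 0.06 on the log2 scale (adjusted p = 1.1e-12 and 1.1e-15). CPM are relative to the other transcripts, so these are rises in share and need not be rises in amount. In siNC2 the median gene at this step stood at 0.11, and at -0.02 under RLE scaling. At 2 h siNC1 had 56.7 and 57.2 CPM and siNC2 58.7 and 55.2 CPM, below their 1 h levels and above their 0 h levels.

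In siVirma the same step was -0.13 ± 0.08 and in the libraries labelled siIgf2bp3 it was -0.09 ± 0.06, and neither was called (adjusted p = 0.262 and 0.272). Pdgfa went the other way in the control arms, by -0.55 ± 0.07 in siNC1 and -0.66 ± 0.06 in siNC2 (adjusted p = 7.3e-08 and 5.1e-11). Pdgfc rose by 0.29 ± 0.11 in siNC1 and 0.38 ± 0.14 in siNC2, calls that DESeq2 did not make (adjusted p = 0.0667 and 0.21), and the call in siNC2 was lost under RLE scaling too (0.25). The steps of the arms were not tested against each other. The background differed in the same way, with 66.9% of genes called in siNC1 and 72.9% in siNC2, against 17.0% in siVirma and 22.8% in the libraries labelled siIgf2bp3. This 1 h step was added after the values had been seen.

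In the other 4 arms Pdgfra was not called between 0 h and 1 h, with steps of 0.10 in diffTBLC, -0.09 in TBLC, 0.06 in TBLC_PlaB- and -0.14 in TBLC_Ctrl. The step in diffTBLC was called under RLE scaling (0.11, adjusted p = 0.0219) and that in TBLC_Ctrl with library totals (-0.22, adjusted p = 0.0371). The genes called at that step made up 41.0%, 36.8%, 34.1% and 47.6% of these arms. Pdgfa fell by 0.30 ± 0.06 in diffTBLC (adjusted p = 6.2e-06) and Pdgfc by 0.38 ± 0.07 in TBLC_Ctrl (adjusted p = 7.2e-07). Pdgfrb rose by 0.26 ± 0.08 in TBLC, 0.19 ± 0.06 in TBLC_PlaB- and 0.18 ± 0.07 in TBLC_Ctrl, and all 3 calls were lost in DESeq2 and with library totals.

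**Figure D2:**
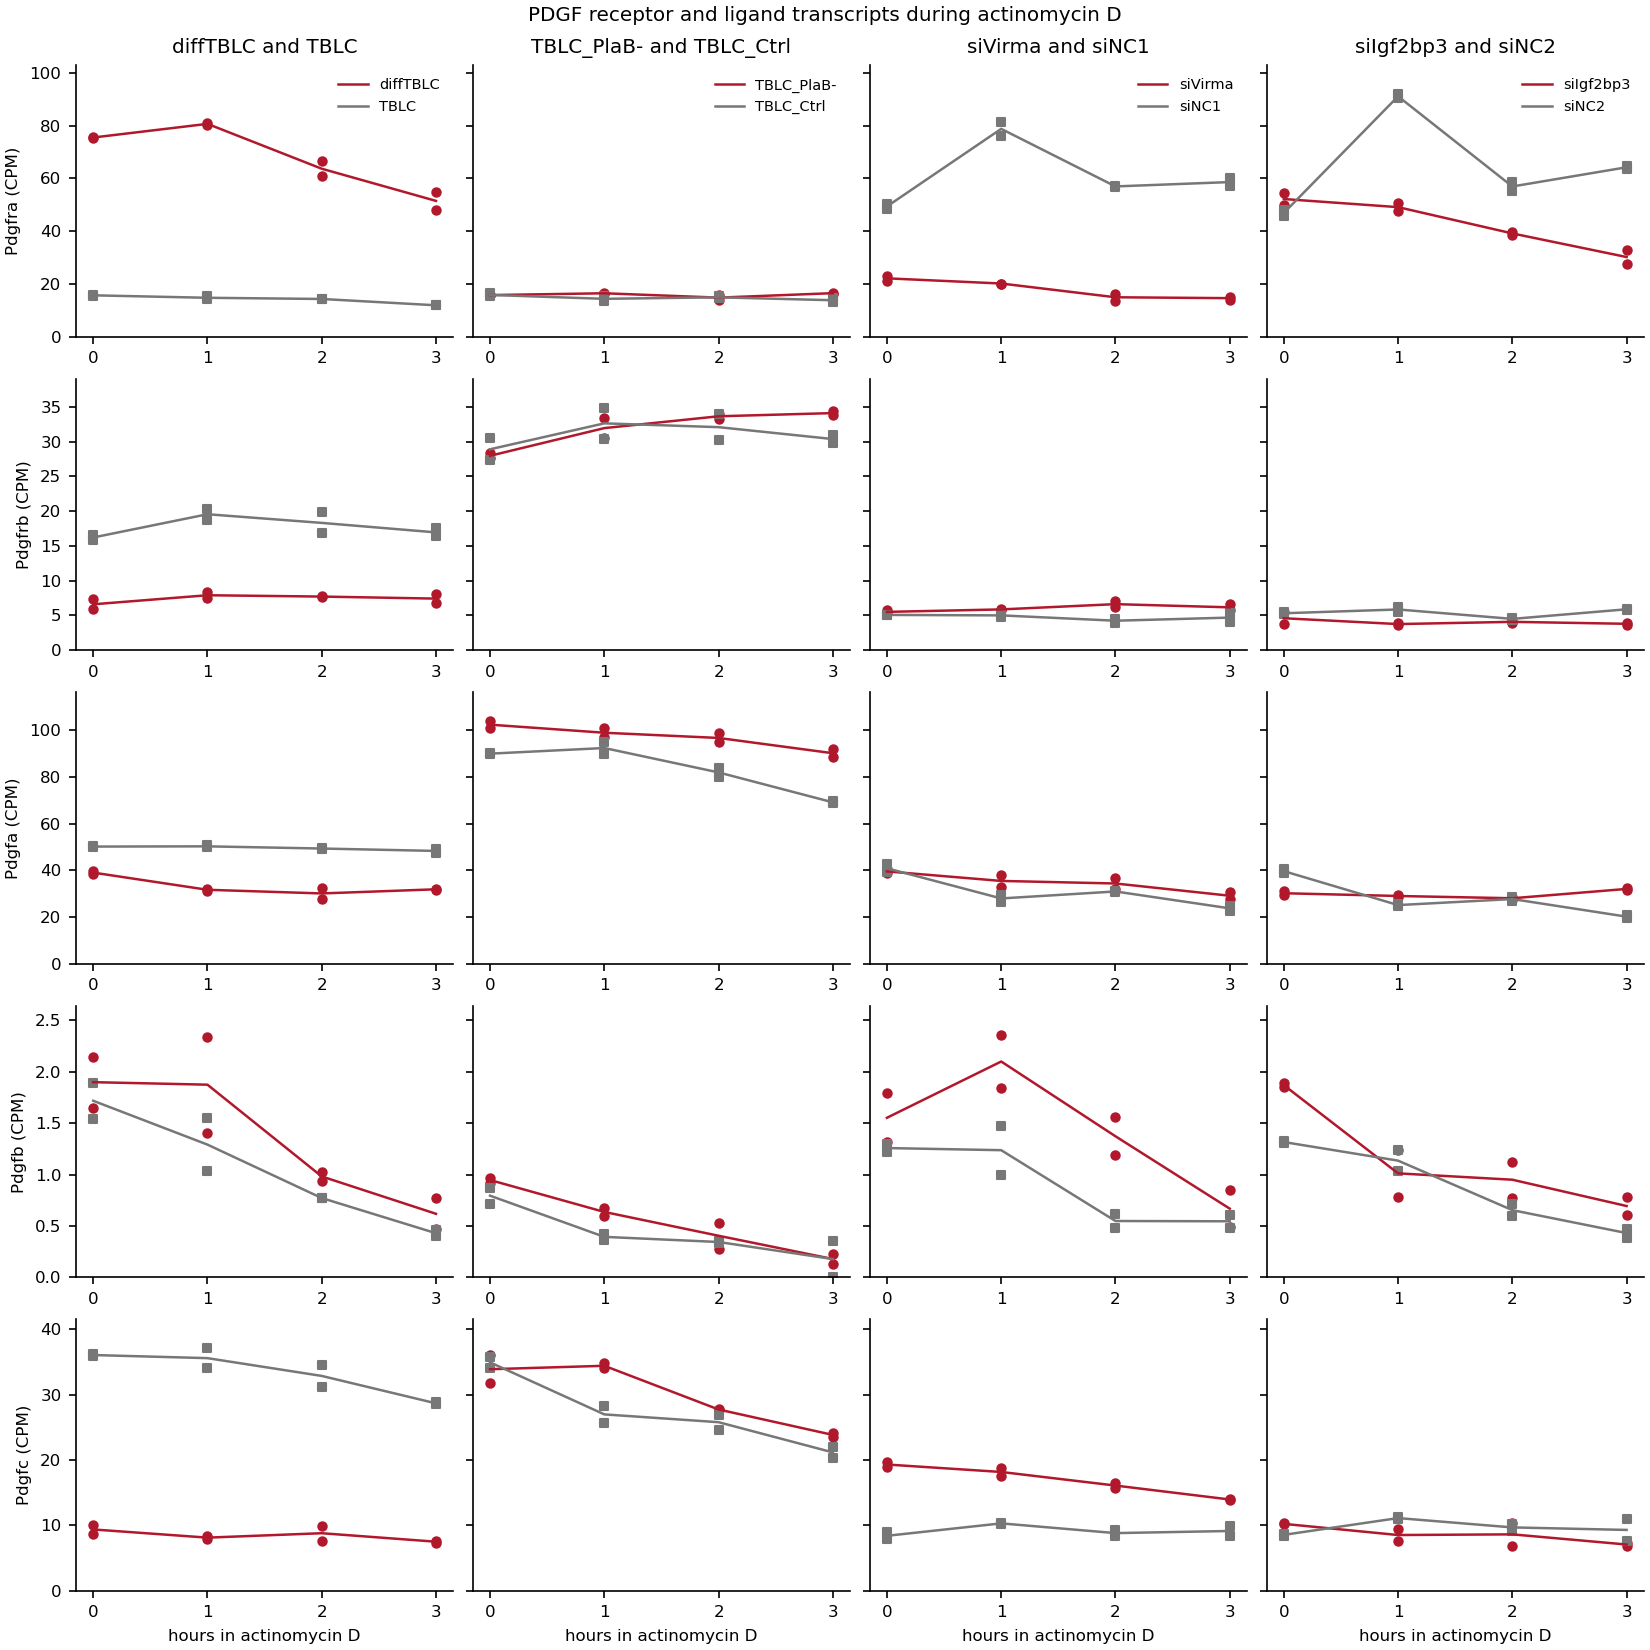
CPM of the 5 genes (rows, axes from 0, shared along a row) over hours of actinomycin D in the 4 courses (columns). Points are libraries and lines join group means; red stands for the first arm named and grey for its control. In siNC1 and siNC2 Pdgfra peaks at 1 h (between 76.1 and 91.8 CPM), while Pdgfb declines in all 8 arms.

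The course also asked how fast the transcripts decline. Slopes are log2 changes per hour relative to the centre of all transcripts, since no spike-in is described, so they are no absolute decay rates. Pdgfb declined in all 8 arms, from -0.37 ± 0.13 in siVirma to -0.70 ± 0.15 in TBLC_PlaB-, each called (largest adjusted p = 0.0376). Its counts at 3 h were between 0 and 15 a library. Pdgfc declined most in TBLC_Ctrl and TBLC_PlaB-, by 0.22 ± 0.03 and 0.18 ± 0.03 per hour, and its slope was 0.01 in both siNC1 and siNC2.

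Pdgfra declined by 0.20 ± 0.03 per hour in diffTBLC, 0.12 ± 0.04 in TBLC, 0.22 ± 0.07 in siVirma and 0.27 ± 0.09 in the libraries labelled siIgf2bp3. In TBLC_PlaB-, TBLC_Ctrl, siNC1 and siNC2 its slopes were 0.00, -0.05, 0.01 and 0.04 and were not called. Pdgfrb slopes lay between -0.07 and 0.09 in all arms, and the one called was 0.09 ± 0.03 in TBLC_PlaB- (adjusted p = 0.0051). Pdgfa slopes ran from -0.28 ± 0.05 in siNC2 to 0.02 ± 0.05 in the libraries labelled siIgf2bp3.

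Differences between slopes were called for 0 of 5 members in 3 of the 4 courses in edgeR. In diffTBLC against TBLC, where 8.21% of genes were called, the members' slope differences lay between -0.08 and 0.11, and none had an unadjusted p under 0.05. In TBLC_PlaB- against TBLC_Ctrl, where 0.411% were called, Pdgfa alone was under 0.05 before adjustment (0.07 ± 0.03, adjusted p = 0.303). In siVirma against siNC1, where 8.94% were called, Pdgfra (-0.24 ± 0.10, adjusted p = 0.0849) and Pdgfc (-0.17 ± 0.06, adjusted p = 0.0593) were under 0.05 before adjustment. DESeq2 called Pdgfc there (adjusted p = 0.0493) and no member in the other 2 courses, and without siNC1 replicate 1 or 2 at 1 h edgeR called both genes (Pdgfra -0.27 and -0.26, Pdgfc -0.18 in each). Taken as the change from 0 h to 3 h, the arms differed by -0.84 for Pdgfra (adjusted p = 2.5e-08), -0.60 for Pdgfc (adjusted p = 0.00103) and 0.35 for Pdgfa (adjusted p = 0.00905), all in edgeR and summed over the 3 h. By that measure 8019 of the 13664 genes tested were called. It rests on the 0 h libraries of siNC1, which stand apart as given above.

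In the libraries labelled siIgf2bp3 against siNC2, 2 of 5 slope differences were called, where 52.4% of genes were. Pdgfa differed by 0.30 ± 0.07 per hour (adjusted p = 0.00304) and Pdgfra by -0.31 ± 0.13 (adjusted p = 0.0499). Neither held without the 0 h libraries (0.22, adjusted p = 0.179, and -0.09, adjusted p = 0.66), and scaled to ribosomal protein genes Pdgfa turned to -0.32 (adjusted p = 0.0139). The Pdgfra call was also lost without any 1 of 10 libraries, namely those of 0 h and 3 h in both arms and of 1 h labelled siIgf2bp3, with adjusted p-values between 0.0503 and 0.102.

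Binding was read from IP against input, as log2 differences relative to the centre of all transcripts. Igf2bp3 itself had 81.3 and 80.5 CPM in its IP, against 67.4 and 68.0 CPM in the input. In that immunoprecipitation 3 of 5 members were called, where 69.7% of 12904 genes were. Pdgfra had 197 and 192 CPM in the IP, against 116 CPM in both inputs, a difference of 0.75 ± 0.05 (adjusted p = 4.3e-51). Pdgfrb had 19.03 and 18.61 CPM in the IP, against 11.1 and 9.66 CPM in the input (0.86 ± 0.15, adjusted p = 4.5e-08). Both receptor genes were higher in the IP, without overlap.

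Pdgfa had 27.4 and 26.6 CPM in the Igf2bp3 IP, against 43.7 and 44.7 CPM in the input, a difference of -0.71 ± 0.09 (adjusted p = 1.8e-13). This ligand was thus lower in the IP where both receptors were higher. Pdgfc had 5.73 and 7.10 CPM against 4.04 and 6.62 CPM in the input, with overlap, and Pdgfb 2.82 and 3.45 against 2.28 and 2.68 CPM, without. Neither was called (0.26 ± 0.24 and 0.33 ± 0.35, adjusted p = 0.324 and 0.396).

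In the pathway lists, 5 of 6 co-receptors and modulators were higher in the Igf2bp3 IP and 0 lower. Of 33 adaptors and effectors 22 were higher and 6 lower, and of 13 negative regulators 10 were higher and 3 lower. The medians of these lists were 0.57, 0.27 and 0.41 beside -0.01 over all genes. Of all 12904 genes tested 4512 were called higher and 4485 lower. Ptprj, a phosphatase of growth factor receptors, differed by 2.35 ± 0.07. The PrE markers were higher in 9 of 12 and lower in 1, with a median of 0.61, beside 0.75 for Pdgfra. Fibroblast and feeder markers were higher in 14 of 17 tested and lower in 1, with a median of 0.77.

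In the Ythdf2 immunoprecipitation all 5 members were called, where 79.0% of 12364 genes were, in libraries whose input lacks the PrE marker levels of diffTBLC. Pdgfrb had 65.1 and 56.5 CPM in the IP, against 15.8 and 14.1 CPM in the input (2.02 ± 0.15, adjusted p = 1.9e-20). Pdgfc had 43.8 and 43.6 CPM in the IP, against 9.33 and 9.29 CPM in the input (2.23 ± 0.17, adjusted p = 4.2e-19). These were 4.07-fold and 4.69-fold higher in the IP, without overlap.

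Pdgfb had 82 and 81 counts in the Ythdf2 IP (7.46 and 6.38 CPM), against 3 and 6 counts in the input (1.22 and 2.06 CPM), a difference of 2.03 ± 0.40 (adjusted p = 7.3e-06). Pdgfa had 105 CPM in both IP libraries, against 51.5 and 50.9 CPM in the input (1.04 ± 0.09, adjusted p = 3.9e-16). Pdgfra had 27.4 and 25.6 CPM in the IP, against 14.6 and 14.1 CPM in the input (0.88 ± 0.17, adjusted p = 4.3e-06). For all 5 genes both IP libraries were above both inputs. Ythdf2 itself had 333 and 341 CPM in the IP and 81.1 and 96.3 CPM in the input.

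Among the pathway genes in the Ythdf2 IP, 16 of 33 adaptors and effectors were higher and 10 lower, with a median of 0.23 beside 0.02 over all genes. The adaptor genes Nck1 and Crkl differed by 2.94 ± 0.09 and 2.48 ± 0.07. Of 13 negative regulators 8 were higher and 2 lower, with Socs3, a cytokine-induced inhibitor, at 1.67 ± 0.06. Pdgfrl, a gene named for its likeness to the receptors, differed by -1.14 ± 0.35 (adjusted p = 0.00236), against the direction of the 5 members.

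**Figure D3:**
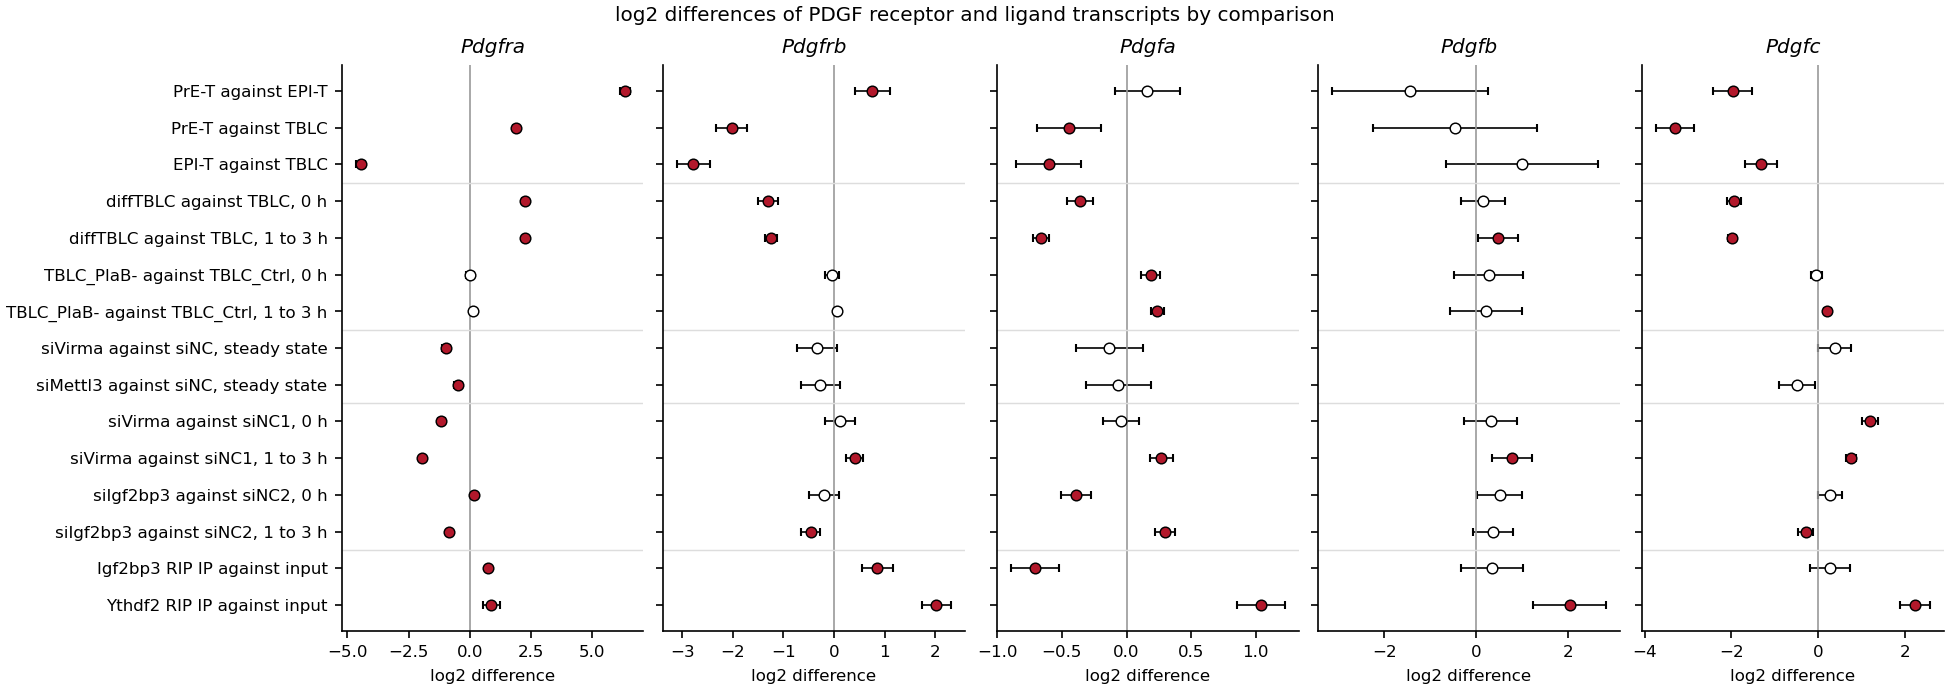
Fitted log2 differences of the 5 genes (horizontal axes, scale differs by gene) in 15 comparisons, first group minus second; bars are 95% intervals, red points are called and white are not. Pdgfra lies at -0.98 and -1.16 after siVirma at steady state and at 0 h, and Pdgfb has no value at steady state because it failed the filter.

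Levels were then ordered over the 17 groups that were at 0 h, at steady state, input or untreated. The tables were scaled separately, so this order is a description with no test. Pdgfra ran from 373 ± 1.99 CPM (SD, n = 2) in PrE-T and 133 ± 2.98 CPM in siNC at steady state to 4.64 ± 1.05 CPM in EPI-T, and 5 of its neighbouring groups overlapped. The top and bottom of its order are the fractions sorted on its protein, so these ends are a check of the sort only. Pdgfrb ran from 65.0 ± 0.39 CPM in TBLC2, a further culture of TBLC in 2MYCP, to 4.52 ± 0.28 CPM in EPI-T, with 9 overlapping neighbours. Groups with the TBLC label held unlike levels: Pdgfra had 101 ± 3.33 CPM in TBLC beside the sorted cells and 98.6 ± 4.20 CPM in TBLC2, but 15.7 ± 0.43 CPM in TBLC at 0 h and 15.8 ± 0.83 CPM in TBLC_Ctrl.

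PrE markers summed to between 2434 and 2513 CPM in TBLC beside the sorted cells and between 4393 and 4430 CPM in TBLC2, against between 791 and 804 CPM in TBLC at 0 h. Pdgfa ran from 102 ± 1.99 CPM in TBLC_PlaB- to 28.2 ± 1.60 CPM in EPI-T, with 8 overlapping neighbours. Pdgfc ran from 36.2 ± 1.64 CPM in TBLC2 and 36.1 ± 0.19 CPM in TBLC at 0 h, which overlap, to 2.22 ± 0.66 CPM in PrE-T, with 8 such neighbours. Pdgfb ran from 2.48 ± 0.28 CPM in the Igf2bp3 input to 0.259 ± 0.10 CPM in PrE-T, with 11.

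Likeness was measured over 14 group means, centred on their table, of which 3 come from the table sorted on the protein of Pdgfra. Pdgfra and the summed PrE markers had Pearson r = 0.953, and r = 0.965 over the 11 groups without that table. Pdgfrb and the summed fibroblast and feeder markers had r = 0.971, and 0.966 without it. Pdgfa and Pdgfrb had r = 0.869, and 0.737 without it, and Pdgfra and Pdgfc had r = -0.498, and -0.914 without it. Pdgfra and Pdgfrb turned in sign, with r = 0.261 over the 14 and -0.736 over the 11. The values over 11 groups were added after the data were seen. The genes most like Pdgfra in this measure, among 9443 candidates, were Runx1, Tmbim1, Grina, Fgfr2 and Kctd10 (r from 0.993 to 0.998, and from 0.958 to 0.988 without the sorted table). For Pdgfrb they were Gpnmb, Cdkn1a, Ephx1, Ahnak2 and Rnf121 (r from 0.981 to 0.994), for Pdgfc Zeb1, Nin, Ndst1, Fxyd6 and Stim2 (r from 0.970 to 0.987), and for Pdgfa Cdh4, Dynlt1b, Gas8, Serpinf1 and Pgpep1 (r from 0.907 to 0.940). Without the sorted table the r of these named genes was between 0.912 and 0.980 for Pdgfrb, 0.919 and 0.983 for Pdgfc and 0.815 and 0.964 for Pdgfa. All named genes, those of Pdgfra included, were picked over the 14 means and were not ranked again over the 11. The points share libraries and the controls of a table, and these values are descriptions without a p. Pdgfb was not tested in all 6 tables used.

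**Figure D4:**
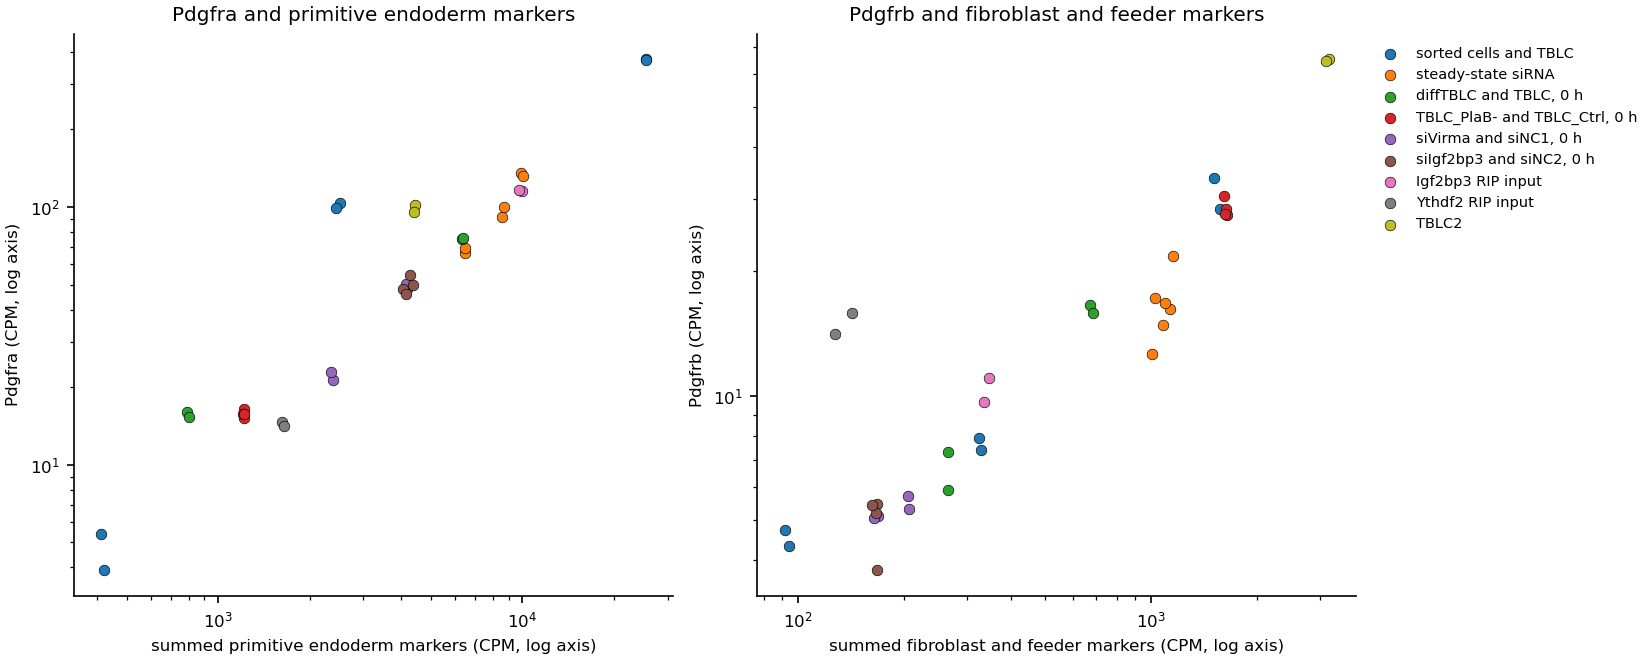
CPM of Pdgfra against summed PrE markers (left) and of Pdgfrb against summed fibroblast and feeder markers (right), both axes logarithmic. Each point is 1 of 34 libraries at 0 h, at steady state, input or untreated, coloured by table; tables were scaled separately. Within tables the group means of both genes mostly follow their marker sums, but across tables they need not. Pdgfra has a mean of 98.6 CPM in TBLC2 at PrE sums between 4393 and 4430 CPM. In diffTBLC at 0 h it has 75.45 CPM at sums between 6352 and 6360 CPM. The Ythdf2 inputs stand apart for Pdgfrb at 15.8 and 14.1 CPM.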

How the data were processed

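Total RNA came from TRIzol extracts; the labels' protocols list 2 stranded kits without saying which library used which. The deposited tables hold raw read counts per gene symbol. Per the submitters' processing notes, the authors used FastQC 0.12.1, Trim Galore, STAR 2.7.11b, Subread, DESeq2 and build mm39; the annotation and strand setting are not given in the sources used here.

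Each table was scaled on its own (TMM), filtered with filterByExpr (minimum count 10) and tested with edgeR 4.0.16 under R 4.3.3, with p-values adjusted over all genes tested. CPM were computed for all genes on those library sizes. In the actinomycin D tables, 1 fit with a mean for every arm and hour gave the 0 h values and the 1 to 3 h averages, and a fit with a line per arm gave the slopes. Columns called TBLC_S were taken as TBLC_PlaB-, whose samples had no other column. The alternatives tried were no filter, RLE scaling or library totals, DESeq2 1.42.0, only the groups compared, the replicate block and leaving out each library; slopes were also scaled to ribosomal protein genes, fitted without 0 h and taken as 3 h against 0 h. The fits were tested on simulated data. In 43 replicate pairs none was identical. Their chi-square per degree of freedom, where 1 stands for counting error alone, ran from 1.11 (TBLC at 3 h) to 10.6 (PrE-T). In the course of diffTBLC and TBLC it was at most 1.91 (diffTBLC at 3 h). The p-values of that course are thus set against a spread near counting error.

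All 5 members are given in each planned comparison, singly or within a range of values, with the targeted gene, up to 3 genes of each of 6 pathway lists by lowest adjusted p, and the 5 genes most like each member over group means (mean log2 CPM of at least 3, pseudocount 0.5). Members and lists were chosen with earlier results of these data known. The m6A peak lists and 12 samples without a count table were not analysed here.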

Additional observations from a re-analysis of the deposited data

Results flagged for a closer look

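The slope differences between the libraries labelled siIgf2bp3 and siNC2 drew attention because the change over time differed between the 2 arms by a test of the difference itself. For Pdgfa the difference was 0.30 ± 0.07 per hour on the log2 scale, with slopes of 0.02 ± 0.05 in the libraries labelled siIgf2bp3 and -0.28 ± 0.05 in siNC2 (edgeR, adjusted p = 0.00304). For Pdgfra it was -0.31 ± 0.13 per hour, with slopes of -0.27 ± 0.09 and 0.04 ± 0.09 (edgeR, adjusted p = 0.0499). Slope differences were called for 52.4% of all genes tested there. Neither call held without the 0 h libraries (edgeR, adjusted p = 0.179 for Pdgfa and 0.66 for Pdgfra). Pdgfa turned to -0.32 with ribosomal protein gene scaling, and the Pdgfra call was lost when certain single libraries were left out, as given above. In siNC2 these genes also changed between 0 h and 1 h, Pdgfra by 0.96 ± 0.06 and Pdgfa by -0.66 ± 0.06, together with 72.9% of the genes tested, and the part of this step in the slopes was not tested.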

How the results depend on the processing

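Of 1599 values under the alternatives, 1465 kept direction and side of the threshold, 48 lost a call and 32 gained one. A further 2 reversed with a call in the main fit or the alternative, and 52 changed sign with no call in either. The 2 reversals came with ribosomal protein gene scaling in the slopes of siIgf2bp3 against siNC2, where Pdgfa had -0.32 (adjusted p = 0.0139) and Pdgfb -0.51 (adjusted p = 0.0495) per hour; that scaling put the median gene at -0.63. Of these slope differences 1 was called with the replicate block, 5 with ribosomal protein gene scaling and 0 without 0 h, against 2. With ribosomal protein gene scaling 11249 of all 13580 genes were called, against 7110 in the main fit. The causes of these shifts were not tested. For siIgf2bp3 against siNC2 at 0 h, 1 member was called under RLE scaling, without the filter, in DESeq2 and with only the groups compared, and 4 with library totals, against 2. In diffTBLC against TBLC 1 slope difference was called without 0 h (Pdgfra, -0.18 per hour) and 1 at 3 h against 0 h (Pdgfa, -0.24 in all over the 3 h), against 0. In TBLC_PlaB- against TBLC_Ctrl 1 was called in each of these (Pdgfa, 0.15 per hour and 0.20 in all over the 3 h), against 0. Without 0 h, 4728 genes were called in the course of diffTBLC and 3128 in that of TBLC_PlaB-, against 1188 and 58 in the main fit. At 0 h of TBLC_PlaB- against TBLC_Ctrl DESeq2 called 0 members, against 1. In siVirma against siNC1 DESeq2 called 1 slope difference and 3 h against 0 h gave 3 (Pdgfra, Pdgfc and Pdgfa), against 0. Among all genes these settings called 2851 and 8019, against 1221 in the main fit. With library totals the 1 h step was also called for Pdgfc in diffTBLC (-0.27) and for Pdgfa in TBLC_PlaB- (-0.10) and siVirma (-0.20). In siVirma against siMettl3 DESeq2 called 1 member, against 2.

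Leaving out 1 library at a time, the members called ranged from 2 to 3 in PrE-T against TBLC, 4 to 5 in diffTBLC against TBLC over 1 to 3 h, 0 to 1 and 2 to 3 in TBLC_PlaB- against TBLC_Ctrl at 0 h and over 1 to 3 h, 1 to 2 in siVirma against siMettl3, 1 to 2 in siIgf2bp3 against siNC2 at 0 h, and 1 to 3 and 0 to 2 in the slope differences of siIgf2bp3 and siVirma; in the other comparisons the count did not move. A group left with 1 library was assumed to vary like the others.

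Deviations of same-numbered libraries correlated between -0.116 and 0.093 across arms or groups (72 pairs) and between -0.032 and 0.328 across the hours of an arm (48 pairs), so the numbers were not taken to pair the libraries. With the replicate block Pdgfra was called at the 1 h step of diffTBLC (0.10, adjusted p = 0.0461) and Pdgfa at that of siVirma (-0.16, adjusted p = 0.0476), Pdgfb lost its call in diffTBLC against TBLC over 1 to 3 h (0.54, adjusted p = 0.0543) and Pdgfra its slope call in siIgf2bp3 against siNC2 (-0.31, adjusted p = 0.0735), while Pdgfc was called at 0 h (0.43, adjusted p = 0.00307) and not over 1 to 3 h (-0.13, adjusted p = 0.201) in siIgf2bp3 against siNC2. Counts of all genes called were 863 in edgeR and 242 in DESeq2 for siVirma, 105 and 28 for siMettl3, 295 and 61 between them, and 177 and 47 for TBLC_PlaB- at 0 h. For slopes they were 1221 in siVirma, with 2851 in DESeq2, 8019 at 3 h against 0 h, and 0 with the block, without 0 h or with ribosomal protein gene scaling. They were 1188 in diffTBLC (4728 without 0 h, 111 with ribosomal protein gene scaling), 58 in TBLC_PlaB- (3128 without 0 h, 14) and 7110 in siIgf2bp3 (0 without 0 h, 11249). Over 1 to 3 h TBLC_PlaB- had 2918, 1618 with the block and 1407 in DESeq2. DESeq2 was run without its independent filtering, chosen after its default gave no adjusted p for 18 member tests, among them Pdgfra after siMettl3. Library totals moved the median gene by over 0.1 in 9 of the 20 comparisons, most in PrE-T against TBLC, to -0.35, where 30.4% of called genes were higher, against 49.8% in TMM; no called member changed direction with library totals. Depth limits Pdgfb most, and 2 libraries a group limit every value.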
